A study of Mus musculus with 8 samples.

Results

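Calcium release and reuptake genes of the heart muscle cell were followed as a set of 10 genes: Atp2a2, Pln, S100a1, Ryr2, Casq2, Trdn, Jph2, Hrc, Camk2d and Slc8a1. They were picked by gene symbol from a table of 17190 genes, all 10 were listed, and all 10 passed the filter on low counts that left 12826 genes for testing. The hearts came from male mice on standard rodent chow: 4 wild-type mice, numbered 2, 4, 5 and 6, and 4 Gpihbp1-/- mice (knockout), numbered 1, 2, 3 and 4. Gpihbp1 is the protein of capillary endothelium that anchors lipoprotein lipase, and the study asked what its loss does to the heart. Age, strain background, the extent of the deletion and the heart chambers taken are not given in the sources used here, and nothing says whether the mice were littermates, so each p-value reflects only how these 8 hearts scatter.

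In each heartbeat a small calcium influx through the surface membrane opens ryanodine receptors (Ryr2) in the sarcoplasmic reticulum, and the calcium released there starts contraction. Relaxation follows when the pump SERCA2a (Atp2a2) returns calcium to the store and the sodium-calcium exchanger (Slc8a1) carries the rest out of the cell. Phospholamban (Pln) restrains the pump until it is phosphorylated, and calsequestrin (Casq2) buffers calcium inside the store. A lower pump level with a relatively higher exchanger level is a well-known feature of failing heart muscle.

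None of the 10 genes passed the test for a difference between the genotypes, and in all 10 the knockout and wild-type hearts overlapped. In edgeR's quasi-likelihood test 0 of 10 passed the threshold of 0.05, with adjusted p = 0.99998 for each and 0 with an unadjusted p under 0.05. Over all genes 4 of 12826 passed, which is 0.0312%, and 116 had an unadjusted p under 0.05, which is 0.904%. The groups did not overlap for 0.632% of all genes. Hearts of the same genotype differed widely. On counts scaled to library size, wild-type 2 and knockout 2 had low Atp2a2, Pln and Hrc but not low Slc8a1, wild-type 5 had high levels of most of the set, and wild-type 6 had high S100a1. Which heart was low depended on the scale: per transcript length, wild-type 6 was the lowest for Atp2a2, Pln, Casq2, Trdn, Camk2d and Slc8a1, while wild-type 2 and knockout 2 stayed the lowest for Hrc.

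Wild-type 2, knockout 2 and wild-type 6 also stood apart over all genes. Library totals ran from 9065553 to 13492957 counts. On the first principal component of log2 CPM (read counts scaled to library size), with 53.1% of the variance, wild-type 2 and knockout 2 lay at -86.2 and -81.0 and the other hearts between 19.2 and 42.4; on the second, with 24.2%, wild-type 6 lay at -83.0 and the others between -7.5 and 28.1. Summed levels of 6 macrophage markers were 3896 and 3206 TPM (a share of all transcripts that is scaled for gene length) in wild-type 2 and knockout 2 and 290.8 to 642.4 elsewhere, and 7 fibroblast and matrix markers summed to 2660 and 3673 against 223.0 to 650.2. Of these 7, Col3a1 stood at 791.1 and 1220 against 14.85 to 53.06 elsewhere, but Dcn at 533.4 and 487.1 against 175.5 to 520.2. The 12 cardiomyocyte structural markers, all detected, summed to 75170 and 76790 TPM in wild-type 2 and knockout 2 and to 131000 to 151500 elsewhere. They did not fall alike. Myl2 stood at 12700 and 10290 against 26910 to 38950, and Mb at 10030 and 9461 against 25870 to 32410. Actc1, at 13240 and 17380, lay within the 6755 to 20350 of the other hearts. So did Tpm1 (11160 and 11530, others 10310 to 15100) and Tnnc1 (6755 and 6375, others 5576 to 8761). The 6 atrial markers did not move together. Myl4 stood at 803.8 TPM in wild-type 6 and at 2.61 to 3.56 elsewhere, Myl7 at 643 against 1.72 or less and Sln at 665 against 0.87 or less, but Pam was lowest in wild-type 6 (53.45, others 75.54 to 264.4) and Bmp10 was at 0.11 or less in every heart. Nppa was highest in knockout 2 and wild-type 2, and with it the list summed to 11010 and 6080 TPM there, to 4972 in wild-type 6 and to 486.3 to 786.5 in the others. Blood genes summed to 13620 TPM in wild-type 6 against 962 to 3865. In such tissue libraries fewer cells of a type and less RNA per cell cannot be told apart. Of 8 skeletal muscle markers, Myh1, Myh2 and Myh4 were at 0.02 TPM or less in every heart and Tnni2 at 2.43 to 5.71, while Acta1 stood at 1322 in wild-type 2 and 2643 in knockout 2 against 243.2 to 728.8, and Tnnt3 at 14.92 in knockout 2 against 0.32 to 2.83. That list summed to 1331 and 2665 TPM in those hearts and to 252.5 to 736 elsewhere. The part of these markers in the levels below was not tested. The targeted gene, Gpihbp1, had 833 to 1951 reads in the wild-type hearts and 0, 0, 1 and 0 in the knockout hearts.

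Compared per length, the pump and its 2 small partners were by far the most abundant of the set. Atp2a2 averaged 3007 ± 1940 TPM, Pln 2795 ± 1280 and S100a1 2027 ± 479 (SD, n = 8), which placed them at ranks 49, 55 and 86 of the 17190 genes. Casq2 (453.1 ± 202) and Hrc (434.9 ± 239) followed, then Jph2 (149.2 ± 81.7) and Trdn (133.1 ± 43.6), Ryr2 (63.22 ± 35.7), Camk2d (34.82 ± 12.6) and Slc8a1 (19.64 ± 10.4). Neighbours in this order were often not separable: Atp2a2 lay above Pln in 3 of 8 hearts, Pln above S100a1 in 6, Casq2 above Hrc in 4 and Jph2 above Trdn in 4. S100a1 lay above Casq2, Hrc above Jph2, Trdn above Ryr2, Ryr2 above Camk2d and Camk2d above Slc8a1 in 8 of 8.

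The pump gene itself varied more within each genotype than between them. Atp2a2 (NCBI gene 11938) stood at 4014, 6266, 18428 and 8198 CPM (scaled with TMM factors) in wild-type 2, 4, 5 and 6, then at 8442, 4896, 13391 and 14960 in knockout 1, 2, 3 and 4. On this scale wild-type 5 was the highest of all hearts, wild-type 2 and knockout 2 the lowest, and the groups overlapped over most of their range. In TPM wild-type 5 was again the highest (6567), but wild-type 6 was the lowest (1087), followed by wild-type 2 (1148) and knockout 2 (1776). Relative to cardiomyocyte markers wild-type 6 was also the lowest, at 0.476 of the mean over hearts, and knockout 2 stood at 1.01. Wild-type hearts averaged 9227 ± 6368 CPM and knockout hearts 10422 ± 4614 (SD, n = 4 per genotype). The fitted log2 fold change was 0.18 (standard error 0.59, 95% interval -1.15 to 1.5, edgeR adjusted p = 0.99998). A level between 0.451 and 2.83 times that of the wild-type therefore lies within the interval.

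Pln (NCBI gene 18821), the reversible brake of the pump, followed a similar order of hearts with a narrower range. It stood at 2772, 3318, 6867 and 5709 CPM in wild-type 2, 4, 5 and 6, then at 4691, 2583, 6271 and 6897 in knockout 1, 2, 3 and 4. The lowest hearts in CPM were wild-type 2, knockout 2 and wild-type 4, whereas in TPM wild-type 6 (1456) lay below wild-type 2 (1533), knockout 2 (1813) and wild-type 4 (2075). Relative to cardiomyocyte markers wild-type 6 was lowest (0.626), with wild-type 2 at 0.919 and knockout 2 at 1.01. The log2 fold change was 0.13 (standard error 0.48, interval -0.94 to 1.21). The ratio of Pln to Atp2a2 transcripts, in TPM, moved within a span of 1.86 times: 1.34, 1.02, 0.721 and 1.34 in wild-type 2, 4, 5 and 6, against 1.07, 1.02, 0.906 and 0.889 in knockout 1, 2, 3 and 4. All 4 knockout ratios lay inside the wild-type range.

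S100a1 (NCBI gene 20193), a small calcium-binding protein that promotes both pump and release channel activity, had another pattern. Its CPM were 437, 709, 443 and 1655 in wild-type 2, 4, 5 and 6, against 722, 332, 658 and 614 in knockout 1, 2, 3 and 4. Wild-type 6 was the highest by a wide margin, and wild-type 5, highest for the pump, was among the lowest. The log2 fold change was -0.48 (standard error 0.50, interval -1.60 to 0.64), and without wild-type 2, wild-type 6 and knockout 2 it was 0.21. In TPM, wild-type 6 (2332) lay below wild-type 4 (2507) and knockout 1 (2572), so the peak is seen on counts and not in TPM. Unscaled counts held it too, with 11779 reads in wild-type 6 against 5066 to 8164 in the others. TMM scaling widened it (scaling factor 0.678 in that heart, the lowest). The S100a1 to Atp2a2 ratio in TPM spanned 7.89 times, with wild-type 5 lowest (0.272), wild-type 6 highest (2.15) and the knockout hearts between 0.447 and 0.947.

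S100a1 is also the shortest of the 10 genes, with a longest coding transcript of 677 bases in GENCODE M21, and short transcripts as a class were high in wild-type 6. The 567 tested genes under 1000 bases had a median of 1.21 log2 units above their own mean in wild-type 6 and -0.61 in wild-type 5, where S100a1 stood at 1.42 and -0.49. The 722 genes of 8000 bases or more moved the other way, with medians of -0.40 and 0.32 in these hearts. Ryr2 and Slc8a1, the longest of the set at 16814 and 18464 bases, stood at 0.29 and -0.60 in wild-type 6 and at 0.93 and 0.89 in wild-type 5. Atp2a2, of 4486 bases, stood at 1.09 in wild-type 5, where the 3769 genes of 4000 to 8000 bases had a median of 0.19. The part of transcript length in these levels was not tested.

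**Figure D1:**
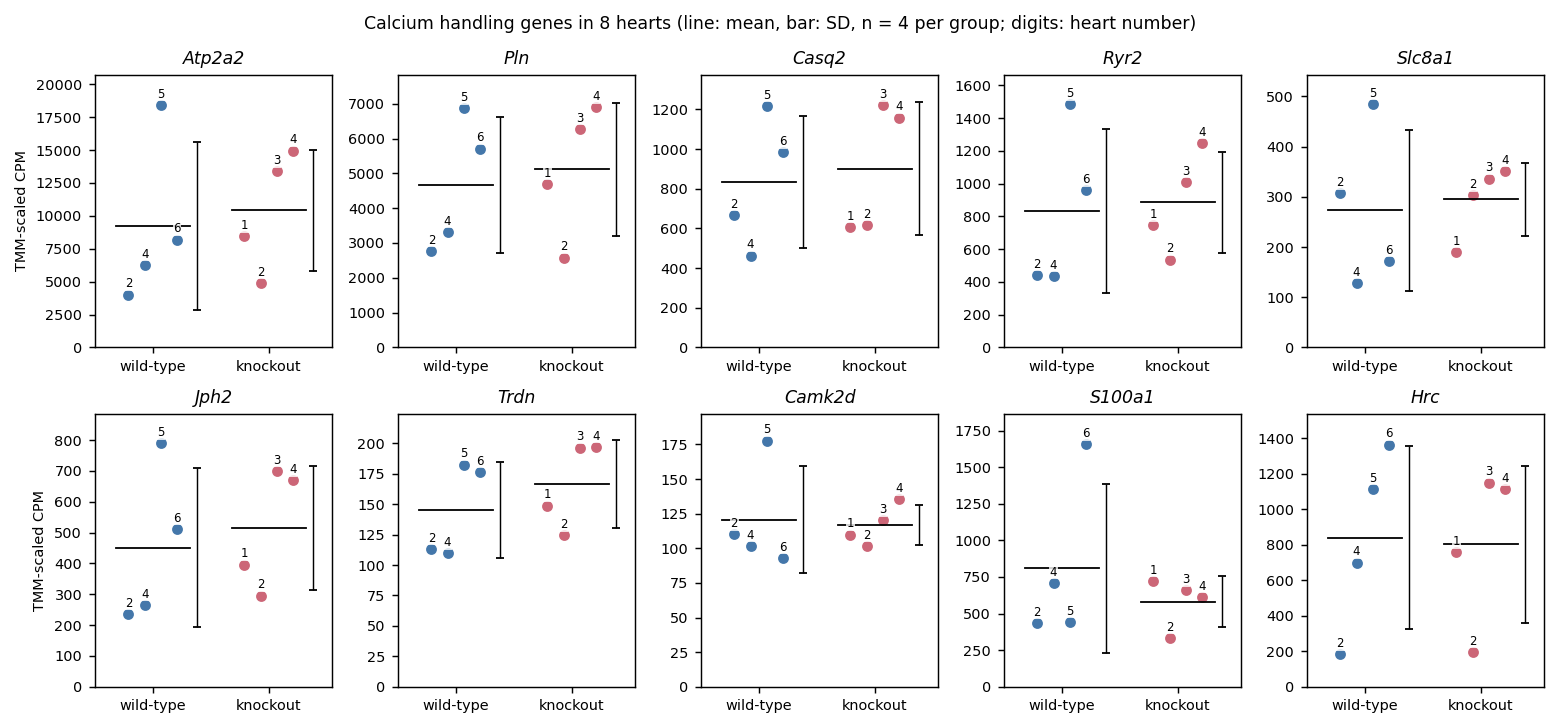
TMM-scaled CPM of the 10 genes in each heart, by genotype; points are hearts with their number, the line is the group mean and the bar beside it the SD (n = 4). The groups overlap in every panel, wild-type 5 is the highest wild-type heart for 8 genes, and wild-type 6 is highest for S100a1 and Hrc.

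The release channel and the protein that holds its membrane junction in place kept nearly the same profile across the hearts. Ryr2 (NCBI gene 20191), the channel, stood at 442, 436, 1485 and 958 CPM in wild-type 2, 4, 5 and 6, then at 746, 536, 1010 and 1249 in knockout 1, 2, 3 and 4, with a log2 fold change of 0.09 (standard error 0.49, interval -1.0 to 1.19). Jph2 (NCBI gene 59091), junctophilin 2, which bridges the surface membrane and the store, stood at 236, 265, 790 and 511 CPM in wild-type 2, 4, 5 and 6, then at 396, 296, 699 and 669 in knockout 1, 2, 3 and 4, with 0.19 (standard error 0.47, interval -0.87 to 1.26). For both genes wild-type 2, wild-type 4 and knockout 2 were the lowest hearts in CPM and wild-type 5 the highest. In TPM wild-type 6 joined the low hearts, at 31.36 for Ryr2 and 70.57 for Jph2, beside 31.16 and 69.77 in wild-type 2. The Jph2 to Ryr2 ratio in TPM was 2.23 to 2.31 in 6 of 8 hearts, 2.56 in wild-type 4 and 2.90 in knockout 3. The root-mean-square difference of their mean-centred log2 CPM was 0.129 over the 8 hearts, the smallest of any pair in the set, where a median gene stood 0.716 from Ryr2.

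The calcium buffer and its anchor varied less. Casq2 (NCBI gene 12373) stood at 668, 463, 1218 and 984 CPM in wild-type 2, 4, 5 and 6, then at 608, 617, 1220 and 1158 in knockout 1, 2, 3 and 4, with a log2 fold change of 0.11 (standard error 0.42, interval -0.84 to 1.06). Wild-type 2 and knockout 2 were in the middle of the order here, and in TPM wild-type 6 was the lowest (229.2). Trdn (NCBI gene 76757), triadin, which ties calsequestrin to the channel, stood at 113, 110, 183 and 176 CPM in wild-type 2, 4, 5 and 6, then at 149, 124, 196 and 197 in knockout 1, 2, 3 and 4. Its log2 fold change of 0.20 had a standard error of 0.28 and an interval from -0.43 to 0.83, which corresponds to 0.740 to 1.78 times the wild-type level. The Casq2 to Ryr2 ratio in TPM ran from 5.84 to 10.8 and the Trdn to Ryr2 ratio from 1.42 to 3.11, with overlapping genotypes in both.

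Hrc (NCBI gene 15464), the histidine-rich calcium-binding protein of the store lumen, showed the widest range of the set and split the hearts sharply. It stood at 182, 700, 1114 and 1365 CPM in wild-type 2, 4, 5 and 6, then at 757, 195, 1151 and 1113 in knockout 1, 2, 3 and 4. Wild-type 2 and knockout 2 lay close together and far below every other heart. The genotype difference was -0.06 (standard error 0.67, interval -1.58 to 1.45); without those 2 hearts, a choice made after seeing the data, it was -0.07 with a standard error of 0.40. Set against the geometric mean of the cardiomyocyte structural markers, which was 3195 and 3429 TPM in these hearts and 4456 to 6336 elsewhere, Hrc was still lowest in them, at 0.417 and 0.528 of its mean over hearts, against 1.03 to 1.67 in the others. The Hrc to Ryr2 ratio in TPM was 3.12 and 2.77 in wild-type 2 and knockout 2 and 5.71 to 12.1 in the other hearts.

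The 250 bases before the annotated start of transcription are shown for the pair with the closest profiles, Ryr2 and Jph2, for Casq2 and Hrc, which hold a rare muscle motif, and for S100a1, which stood apart. They are RefSeq sequences of assembly GRCm38.p6, another build than the GRCm39 named by the submitters, read 5′ to 3′ on the gene's strand; 8 of the 10 genes matched, and for Jph2, with 2 starts, the first listed is given. The windows are chr13:12106946-12107195 (minus strand) for Ryr2, chr2:163397994-163398243 (minus) for Jph2, chr3:102086165-102086414 (plus) for Casq2, chr7:45335019-45335268 (plus) for Hrc and chr3:90514331-90514580 (minus) for S100a1. Capitals mark E-boxes (CANNTG, bound by basic helix-loop-helix factors) and the core CTAAAAAT of sites for MEF2, a family of muscle transcription factors, on either strand.
Ryr2: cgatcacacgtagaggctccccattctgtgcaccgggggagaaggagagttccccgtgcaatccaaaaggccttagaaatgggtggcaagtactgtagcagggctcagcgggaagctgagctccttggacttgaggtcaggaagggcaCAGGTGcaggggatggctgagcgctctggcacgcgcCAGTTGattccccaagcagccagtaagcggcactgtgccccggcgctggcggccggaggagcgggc
Jph2: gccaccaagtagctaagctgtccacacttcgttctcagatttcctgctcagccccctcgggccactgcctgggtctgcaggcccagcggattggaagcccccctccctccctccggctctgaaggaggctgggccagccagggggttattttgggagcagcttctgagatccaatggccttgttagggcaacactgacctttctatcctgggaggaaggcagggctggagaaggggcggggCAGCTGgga
Casq2: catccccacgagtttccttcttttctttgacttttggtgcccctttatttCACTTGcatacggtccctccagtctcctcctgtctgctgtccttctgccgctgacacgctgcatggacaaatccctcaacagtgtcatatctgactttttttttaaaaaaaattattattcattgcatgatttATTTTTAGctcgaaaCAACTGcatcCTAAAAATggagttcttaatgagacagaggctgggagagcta
Hrc: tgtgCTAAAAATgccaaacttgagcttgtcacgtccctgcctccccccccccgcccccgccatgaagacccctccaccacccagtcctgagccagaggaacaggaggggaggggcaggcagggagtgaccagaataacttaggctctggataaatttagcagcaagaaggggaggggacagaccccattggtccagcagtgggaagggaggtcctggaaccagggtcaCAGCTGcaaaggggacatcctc
S100a1: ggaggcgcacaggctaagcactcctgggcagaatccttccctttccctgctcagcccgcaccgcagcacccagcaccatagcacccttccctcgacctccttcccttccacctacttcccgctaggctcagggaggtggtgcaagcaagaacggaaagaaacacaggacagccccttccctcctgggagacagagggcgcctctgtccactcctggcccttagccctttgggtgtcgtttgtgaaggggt

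The MEF2 core occurred 2 times in the Casq2 window and 1 time in that of Hrc, and in 1.01% of 27025 promoter windows of the same length. An E-box occurred in 6 of the 8 matched genes, against 66% of all windows, and in neither S100a1 nor Camk2d. Of the other 4 motifs searched on both strands, AGATAA (for GATA factors) was in 2 of 8 against 10.3% of windows, CATTCC (MCAT, for TEAD factors) in 0 against 12.6%, the GC box GGGCGG in 3 against 32.9% and TATAAA in 1 against 13%. The 2 motifs shown in capitals were chosen with the sequences in view and did not overlap each other, and any match describes letters only. Casq2 and Hrc, which share the core, had unlike profiles, with a root-mean-square difference of 0.882, the largest that Casq2 had with any gene of the set. The GC content was 63.2% for Ryr2, 62% for Jph2, 61.6% for S100a1, 59.6% for Hrc and 41.6% for Casq2, with a median of 52% over all windows.

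In CPM the exchanger did not share the low levels of wild-type 2 and knockout 2. The kinase lay slightly below its mean over hearts in them, at -0.08 and -0.19 log2 units. Relative to cardiomyocyte markers, however, the kinase was highest in these hearts, at 1.46 and 1.54 against 0.414 to 1.43 in the others. Camk2d (NCBI gene 108058), the main cardiac calcium/calmodulin kinase, which phosphorylates both phospholamban and the release channel, stood at 110, 102, 178 and 93.0 CPM in wild-type 2, 4, 5 and 6, then at 110, 102, 120 and 135 in knockout 1, 2, 3 and 4. Apart from wild-type 5 it ran within a narrow band, with a log2 fold change of -0.05 (standard error 0.26, interval -0.63 to 0.54). Slc8a1 (NCBI gene 20541) stood at 307, 128, 485 and 173 CPM in wild-type 2, 4, 5 and 6, then at 190, 303, 336 and 351 in knockout 1, 2, 3 and 4, with 0.11 (standard error 0.44, interval -0.87 to 1.09). Wild-type 2 and knockout 2 lay above 3 of the other hearts. In TPM too they lay above those hearts for Slc8a1, and wild-type 6 was the lowest heart for both genes, at 5.15 for Slc8a1 and 12.27 for Camk2d.

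The balance of exchanger to pump transcripts separated those hearts from the rest. The Slc8a1 to Atp2a2 ratio in TPM was 0.017 in wild-type 2 and 0.0137 in knockout 2, and 0.00457 to 0.00583 in the other 6 hearts. Those 6 hearts of both genotypes overlapped: the ratio was 0.00457, 0.00583 and 0.00474 in wild-type 4, 5 and 6, against 0.005, 0.00557 and 0.00522 in knockout 1, 3 and 4. The high ratio came with the raised macrophage markers and Col3a1 given above. It also came with Nppa, at 5933 and 10790 TPM against 341.3 to 2807 elsewhere, the 2807 in wild-type 6. Nppa, the atrial natriuretic peptide gene, is listed among the atrial markers above and is also known from stressed heart muscle. The chambers taken are not given, and the part of atrial tissue or of stress in the ratio was not tested. The part of other cell types in the Slc8a1 level was not tested. Relative to cardiomyocyte markers, Slc8a1 stood at 1.77 and 2.06 times its mean over hearts in wild-type 2 and knockout 2, as high as in wild-type 5 (1.82), while Atp2a2 stood at 0.701 and 1.01. Slc8a1 was not alone in standing above Atp2a2 there. On that scale Camk2d stood at 1.46 and 1.54 in these hearts and Casq2 at 1.24 and 1.35, while Hrc stood below, at 0.417 and 0.528. Ratios of Camk2d, Casq2 and Hrc to Atp2a2 were not computed.

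**Figure D2:**
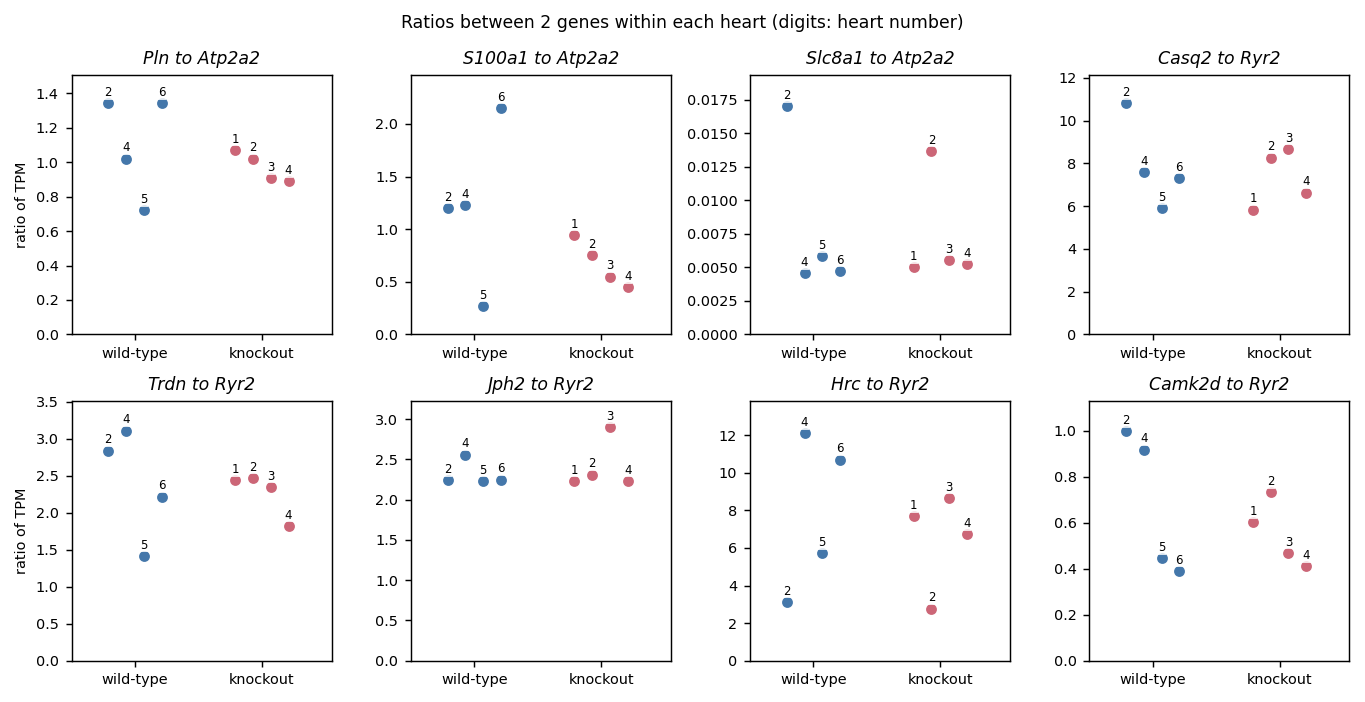
Ratios of deposited TPM between 2 genes within each heart, by genotype; each point is a heart with its number. Wild-type 2 and knockout 2 stand alone in the Slc8a1 to Atp2a2 panel at 0.017 and 0.0137, and the Jph2 to Ryr2 ratio stays between 2.23 and 2.90.

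Within the set, Atp2a2, Pln, Ryr2 and Jph2 had the most similar profiles, with root-mean-square differences of 0.129 to 0.282 log2 units over their 6 pairs. Slc8a1 and Hrc were the least alike, at 1.27, and S100a1 had no gene of the set nearer than 0.625. Searched against 9372 other genes with a mean of at least 10 CPM, the closest profiles were Etfdh (0.105) and Mylk3 (0.117) for Atp2a2, Svip (0.0687) and Osgepl1 (0.0872) for Pln, Extl1 (0.0817) and Pdha1 (0.0846) for Ryr2, and Ccdc85c (0.0587) and Pdha1 (0.0718) for Jph2. For Casq2 they were Psme4 (0.107) and Oxnad1 (0.108), for Trdn Epn1 (0.0806) and Foxred1 (0.0828), for Camk2d Ltbp1 (0.101) and Oxr1 (0.107), and for Slc8a1 Sgcd (0.122) and Prkca (0.130). S100a1 was nearest to Ndufs7 (0.0837) and Coq7 (0.0935), and Hrc to Lrrc14b (0.166) and Cabcoco1 (0.179). These distances rest on 8 libraries, of which 3 stand apart, and describe these hearts only. The nearest fellow gene ranked 7th among all genes for Ryr2 and 13th for Jph2, but 1766th for Camk2d and 2667th for S100a1.

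**Figure D3:**
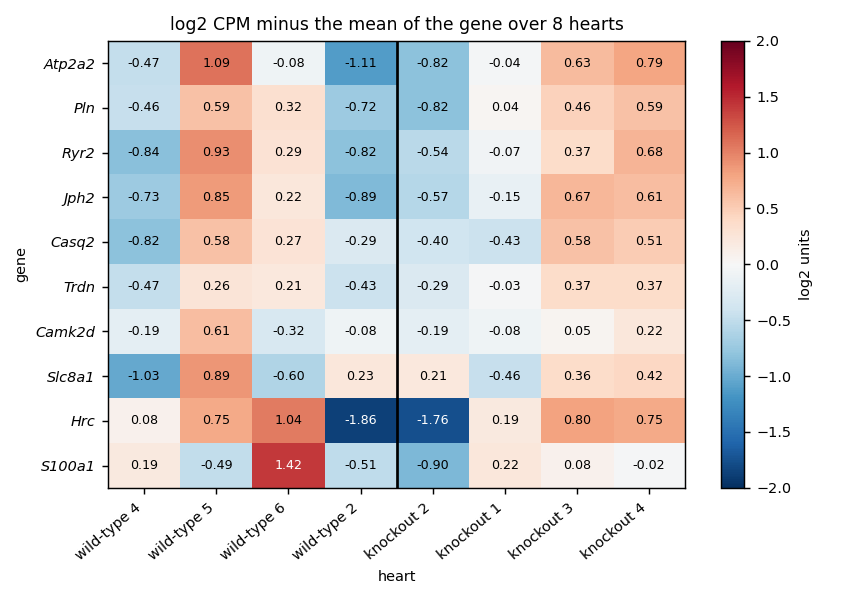
Log2 CPM of each gene minus its mean over the 8 hearts; rows are genes, columns hearts, wild-type left of the black line, and red is above and blue below the mean. The pattern follows single hearts: Hrc is lowest in wild-type 2 and knockout 2 (-1.86 and -1.76), and S100a1 is highest in wild-type 6 (1.42).

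The sign of the genotype difference depended on single hearts for most of the set. The log2 fold change was positive for 7 of 10 genes and negative for 3, with a median of 0.11, where 47.1% of all tested genes were positive and their median was -0.02. The number of positive genes was 3 to 9 when a single heart was left out, was 7 without wild-type 2 and knockout 2, and was 10 with log2(TPM + 1), a scale on which the median of all genes was itself 0.25 and that of the set 0.49. Leaving out wild-type 5 alone raised Atp2a2 from 0.18 to 0.76 and Ryr2 from 0.09 to 0.54, neither past the threshold.

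**Figure D4:**
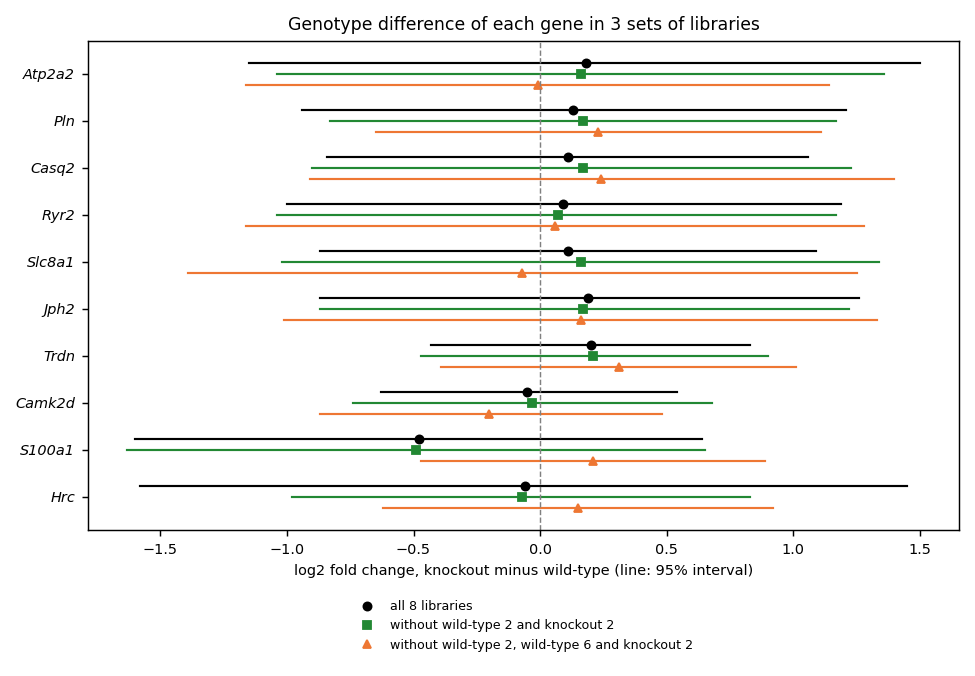
Log2 fold change, knockout minus wild-type, of each gene with its 95% interval (horizontal line) in all 8 libraries and in 2 smaller sets of libraries. Every interval includes 0, and the widest in all 8 libraries belongs to Hrc, from -1.58 to 1.45.

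The wider pathway was covered by 8 lists with 102 listed genes, the 10 above included, of which 96 were tested. Of these 0 passed the threshold in either direction and 1 had an unadjusted p under 0.05, Strit1. Over all tested genes 0.0312% passed and 0.904% had an unadjusted p under 0.05. Both counts are near these shares, which also apply to the single lists below, so they mark nothing particular to the pathway. Strit1 encodes DWORF, a micropeptide that relieves the pump of its inhibition by phospholamban. It stood at 8.85, 17.2, 9.60 and 78.3 CPM in wild-type 2, 4, 5 and 6, with 9.55, 2.03, 8.22 and 9.70 in knockout 1, 2, 3 and 4. Wild-type 6 was far above and knockout 2 below the rest on this scale. In TPM wild-type 6 stood at 652.8, knockout 2 at 56.04 and the others at 187.2 to 400.8. The log2 fold change of -1.95 (standard error 0.77, edgeR unadjusted p = 0.0324, adjusted p = 0.99998) was -0.71 (unadjusted p = 0.221) without wild-type 6. Without wild-type 2 and knockout 2 it was -1.91 (edgeR unadjusted p = 0.0202). Without wild-type 2, wild-type 6 and knockout 2 it was -0.54 (edgeR unadjusted p = 0.097). Neither passed the threshold after adjustment.

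Among pumps and their regulators, 0 of 10 tested genes of 13 passed, 5 positive and 5 negative, with a median log2 fold change of -0.05. Hspb6, a small heat shock protein reported to act on phospholamban dephosphorylation, had 0.05 (standard error 0.34), Ppp1ca, a catalytic subunit of protein phosphatase 1, 0.04 (0.26), and Ppp1r3a, a glycogen-targeting subunit of that phosphatase, 0.61 (0.39). Without wild-type 6 they were 0.13, 0.15 and 0.43. Sarcolipin (Sln), an inhibitor of the pump found mainly in atrial muscle, did not pass the filter on low counts and is named here because of its values. Wild-type 2, 4, 5 and 6 gave 0, 1, 0 and 2530 Sln reads, and knockout 1, 2, 3 and 4 gave 0, 0, 2 and 0, where a count of 0 allows up to 3 reads. Only wild-type 6, the heart with Myl4 and Myl7, was above that limit. Myoregulin (Mrln), the inhibitor of skeletal muscle, likewise named for its values, had 1 to 17 reads in every heart.

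**Figure D5:**
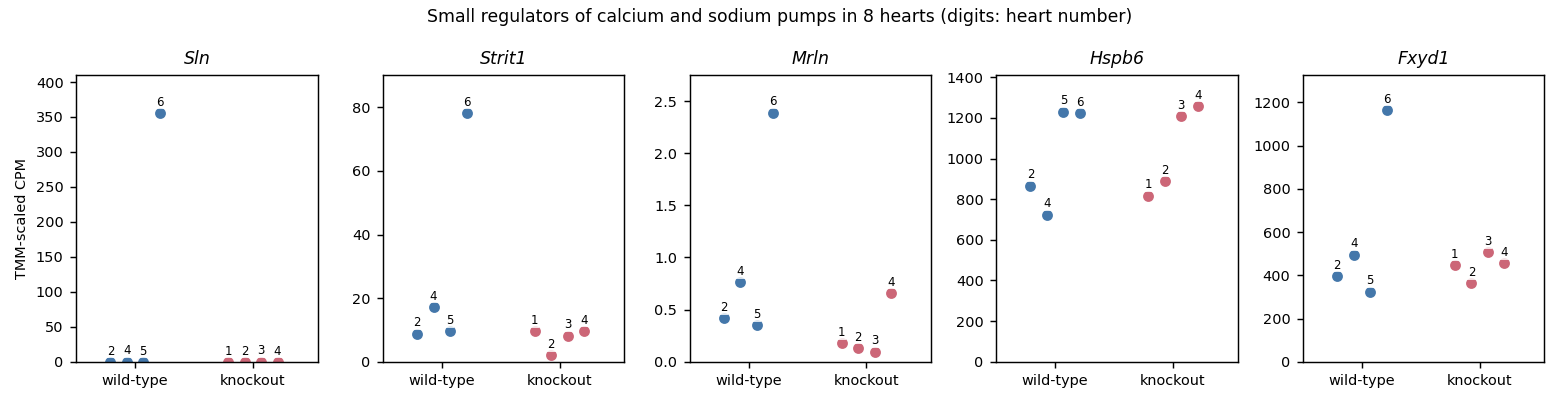
TMM-scaled CPM of Sln, Strit1, Mrln, Hspb6 and Fxyd1 in each heart, by genotype; each point is a heart with its number. Sln is at 356 CPM in wild-type 6 and at 0 to 0.196 in the others. On this scale Strit1, Mrln (17 reads) and Fxyd1 are highest in that heart. In TPM Fxyd1 was lower in wild-type 6 (1931) than in wild-type 4 (2074) and knockout 3 (1974).

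In the release unit 0 of 19 tested genes of 20 passed, 9 positive and 10 negative, with a median of -0.05. Tmem38a and Tmem38b, cation channels of the store membrane that carry counter-currents, had -0.13 (standard error 0.48) and 0.64 (0.37), and Srl, sarcalumenin, a calcium-binding glycoprotein of the store, -0.27 (0.47). Ryr3, a minor ryanodine receptor, had -0.90 (0.63) on at most 31 reads per library. Without wild-type 6 these were 0.23 for Tmem38a, 0.40 for Tmem38b, -0.01 for Srl and -0.30 for Ryr3. In the T-tubule and dyad list 0 of 11 tested genes of 12 passed, 5 positive and 6 negative, with a median of -0.01. There Cav3, caveolin of muscle, had -0.65 (0.43), Dysf, the membrane repair protein dysferlin, -0.27 (0.23), Tcap, the titin cap, -0.01 (0.67) and Popdc2 -0.01 (0.38). Without wild-type 6 Cav3 was -0.31, Dysf -0.15, Tcap 0.68 and Popdc2 0.14. Without wild-type 2, wild-type 6 and knockout 2, Cav3 was 0.23 and Tcap 0.69 (edgeR unadjusted p = 0.0448, not past the threshold after adjustment).

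In the surface extrusion list 0 of 8 tested genes of 10 passed, 7 positive and 1 negative, with a median of 0.11. Fxyd1, phospholemman, a small regulator of the sodium pump and the exchanger, had -0.43 (standard error 0.43), and Atp1b1, the beta subunit of the sodium pump, had 0.47 (0.49). Without wild-type 6 Fxyd1 was 0.11 and Atp1b1 0.29. In the kinase list 0 of 20 passed, 13 positive and 7 negative, with a median of 0.02. Ppp2r5a, a targeting subunit of protein phosphatase 2A, had -0.52 (0.28), the kinase subunits Prkacb and Prkar1a 0.22 (0.30) and -0.11 (0.38), and the stimulatory G protein gene Gnas 0.01 (0.30). Without wild-type 6 Ppp2r5a was -0.30, Prkacb -0.00, Prkar1a -0.26 and Gnas 0.08. Gnas ran from 900 to 1246 CPM over the 8 hearts, the groups overlapping.

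Genes of store entry and IP3 receptors, mitochondrial calcium uptake and luminal chaperones did not pass either. In store entry and IP3 receptors 0 of 9 passed (3 positive, 6 negative, median -0.07), with Saraf, a brake on store-operated entry, at 0.06 (standard error 0.36), the channel gene Orai3 at -0.16 (0.20) and the receptor Itpr2 at 0.14 (0.25). Without wild-type 6 these were 0.14, -0.05 and 0.02. In mitochondrial calcium uptake 0 of 11 passed (5 positive, 6 negative, median -0.01): Smdt1, the EMRE subunit of the uniporter, had -0.82 (0.48) and Vdac1, the outer membrane channel, 0.13 (0.42). Smdt1, of 705 bases, stood at 557 CPM in wild-type 6 and 107 to 178 in the others, and without that heart the log2 fold change was -0.08 for Smdt1 and 0.28 for Vdac1. In luminal chaperones 0 of 9 passed (5 positive, 4 negative, median 0.05), with Calr, calreticulin, at 0.22 (0.39), Hspa5, the chaperone BiP, at 0.05 (0.33), Canx, calnexin, at -0.21 (0.27) and Sdf4 at -0.29 (0.26). Without wild-type 6 these were 0.16, -0.03, -0.18 and -0.06. Calr was highest in knockout 2, at 851 CPM, then in wild-type 2, at 558, and 308 to 412 elsewhere.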

How the data were processed

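Poly(A)-selected, strand-specific libraries of 8 mouse hearts were sequenced as paired ends on a DNBSEQ instrument, per the labels' protocols, whose wording names rat tissue in 1 place. HISAT, Bowtie2 and build GRCm39 appear in the submitters' processing notes; their versions and the counting program are not given in the sources used here. Per gene and library, the authors deposited estimated read counts (expected counts) and TPM, per the file headers; 8 empty per-sample columns were not used. Groups and heart numbers came from the sample titles.

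Counts were rounded and filtered with filterByExpr (minimum count 10, minimum total 15). The genotypes were compared with edgeR 4.0.16 (R 4.3.3, TMM scaling, robust quasi-likelihood F-test, no covariates), with Benjamini-Hochberg adjustment over 12826 genes and a threshold of 0.05; limma 3.58.1 and DESeq2 1.42.0 served as alternatives. Standard errors are the log2 fold change over the root of F. Levels and ratios between genes use TPM and carry no test. Principal components and profile distances use log2 CPM with prior count 2. The fit was tested on simulated counts, with 50 changed genes of at least 10 CPM per size of change. It recovered 0% of 1.5-fold, 6% of 2-fold, 78% of 4-fold and 100% of 8-fold changes.

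The members, lists, tests and rule for named genes were chosen with earlier results of these data known. Named were the 10 members, in each list the other genes of smallest p (2) and of highest TPM (2), the 2 nearest profiles of each member, and marker genes; others are said to be named for their values. Some genes that this rule names are not reported here. Of the lists' genes, 1 symbol was not listed in the table. No 2 libraries agreed within sampling noise (chi-square per degree of freedom at least 7.29). Any limit given for a count of 0 covers counting error only, because PCR copies carry no molecular identifier here.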

Additional observations from a re-analysis of the deposited data

Results flagged for a closer look

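In groups of 4 hearts, 94 sets of values were examined for a heart far from the other 3, and 9 held one. Chance gives about 1 in 20 for independent, normally spread values. These sets share the same hearts, and some genes were picked by smallest p, so 9 of 94 cannot be read as an excess. None of the 10 genes of the set was flagged in CPM. For the Slc8a1 to Atp2a2 ratio in TPM, wild-type 2 stood at 0.017 with the next wild-type heart at 0.00583, and knockout 2 at 0.0137 with the next knockout heart at 0.00557. For the Jph2 to Ryr2 ratio, wild-type 4 stood at 2.56 above 2.25, and knockout 3 at 2.9 above 2.31. In CPM, wild-type 6 was far above its group for Strit1 (78.3, next 17.2) and Smdt1 (557, next 178). Knockout 2 was far above its group for Calr (851, next 377) and Dysf (146, next 121) and below it for Ppp2r5a (86.6, next 116). In TPM wild-type 6 stood at 652.8 for Strit1 (next 400.8) and at 843.1 for Smdt1 (next 680.1).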

How the results depend on the processing

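No gene of the set passed the threshold in any of 190 values under the alternatives, where the lowest adjusted p was 0.326 (Ryr2, with the replicate block). The number of genes called over all genes, 4 in edgeR, was 8 with DESeq2, 2 to 3 with 1 heart left out, and 168 with the replicate block. That block rests on 2 shared numbers, which the labels do not say mark a pairing. Each gene's log2 CPM minus its genotype mean was correlated across genes between same-numbered hearts. This gave 0.908 for number 2, the hearts that stood apart together, and 0.11 for number 4. Under the block Ryr2 was 0.90 (unadjusted p = 0.0234, adjusted p = 0.326) and Jph2 0.83 (0.029, 0.36), in edgeR.

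Leaving out 1 heart gave log2 fold changes of -0.07 to 0.76 for Atp2a2, -0.05 to 0.38 for Pln, -0.08 to 0.36 for Casq2, -0.12 to 0.54 for Ryr2, -0.12 to 0.54 for Slc8a1, -0.02 to 0.61 for Jph2, 0.09 to 0.33 for Trdn, -0.17 to 0.20 for Camk2d, -0.68 to 0.12 for S100a1 and -0.40 to 0.26 for Hrc. Wild-type 5 gave the highest value for all but S100a1 (wild-type 6) and Hrc (knockout 2). The sign also turned for Camk2d with total-count scaling (0.03), log2(TPM + 1) (0.30), log2(TPM + 0.1) (0.32) and the replicate block (0.15). It turned for S100a1 on both TPM scales (0.04 and 0.04), and for Hrc with total-count scaling (0.10), cardiomyocyte-marker scaling (0.05), both TPM scales (0.32 and 0.32) and the block (0.38). Without wild-type 2, wild-type 6 and knockout 2, a choice made after seeing the data, it turned for Atp2a2 (-0.01), Slc8a1 (-0.07), S100a1 (0.21) and Hrc (0.15). The cause was not tested. The median of all genes was 0.25 and 0.32 on the TPM scales. The biological coefficient of variation was 43.7%, and the effect of read depth on the intervals was not tested.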
